A study of Homo sapiens with 6 samples.

Results

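Cytosolic ribosomal proteins were followed from the parental to the drug-tolerant state of PC9 cells (PC-9 in the labels), a non-small cell lung cancer line with an activating EGFR mutation. Members were all genes with a symbol of the form RPL or RPS plus a number and at most an A, X or L, including RPLP1 and RPLP2 of the stalk, that were read by a probe set annotated to exactly 1 gene. This gave 56 genes and 117 probe sets, out of 19775 genes and 54613 probe sets tested. Of the 56 genes, 52 were core proteins of the ribosome and 4 were paralogs whose symbol ends in L (RPS27L, RPL39L, RPL3L and RPL10L).

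The arrays (Affymetrix Human Genome U133 Plus 2.0) numbered 3 for parental cells and 3 for drug-tolerant persisters (DTPs), and the cells of both groups carried a GFP vector. By the labelled protocol, parental cells in DMSO were harvested on day 3 at 100% confluency. DTPs were harvested on day 10, when erlotinib, which blocks the EGFR kinase, had been present at 2 µM for 9 days from 80% confluency. The methods and the design text give 9 days for DMSO as well as erlotinib, and if the protocol holds, drug, time in culture and cell density cannot be told apart. As DTPs are what the drug leaves behind, survival of a subset cannot be told apart from a change within cells, nor can fewer cells from less RNA per cell. Values are log2 probe set summaries normalized between arrays, which compare 1 probe set across arrays but not the levels of different probe sets.

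Each cytosolic ribosome has a small (40S) and a large (60S) subunit, built from ribosomal RNA and a set of proteins that are needed in nearly equal numbers. Their mRNAs are among the most abundant of a growing cell and commonly begin with a 5′ terminal oligopyrimidine (TOP) tract, a C followed by a run of pyrimidines, through which mTORC1 and the RNA-binding protein LARP1 set their translation and stability. A few core proteins have a paralog encoded by another gene. RPS27L, the paralog of RPS27, is known as a direct target of the p53 transcription factor, RPL39L and RPL10L are best known from the testis, and RPL3L replaces RPL3 in muscle.

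The starts of 8 members are shown because the tract separates RPS27 from RPS27L, and because the other 6 had the changes or the absence of change described further on. Each line holds the 20 bases before the annotated start in lower case and the first 5 transcribed bases in capitals, from RefSeq on GRCh38.p14.
RPS27, chr1:153990742-153990766, + strand: gcaggatttccgctttcgctCCTTT
RPS27L, chr15:63157473-63157497, - strand: cccggaagttgatgccgagcGCAGA
RPL10L, chr14:46651777-46651801, - strand: gcgcgcaggcgtagttaagaGAGCG
RPL39, chrX:119791626-119791650, - strand: gctcgttcttccgccagcttCCCTC
RPL3, chr22:39319619-39319643, - strand: gacccgtaaggccgaccggcCTCTA
RPL22, chr1:6199591-6199615, - strand: ctgcgtagttcgctcacctcCCTTT
RPL38, chr17:74203658-74203682, + strand: ccggaaacggaagtctcgttCTTTT
RPS24, chr10:78033843-78033867, + strand: ttggccggcgaatcgtggttCTCTT
RPS27, RPL39, RPL22, RPL38 and RPS24 start with a C and at least 4 further pyrimidines. RPS27L and RPL10L start with a G, and in RPL3 the run is broken by an A at the fifth base.

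By the probe set taken per gene, most members differed little between DTPs and parental cells, and RPS27L had the largest rise. A call required both a limma adjusted p (Benjamini-Hochberg over all genes) below 0.05 and more than a 1.5-fold difference. Of the 56 member genes, 2 were called higher in DTPs, RPS27L and RPL36A, where 8.08% of all genes were called higher. A single member, RPL27A of the large subunit, was called lower, where 6.13% of all genes were called lower. At the adjusted p alone 3 members rose and 14 fell, beside 20.4% and 24% of all genes. The median log2 fold change was -0.11 over members and -0.05 over all genes on the deposited scale, but 0.04 and 0.10 when arrays were centred on spike-ins. On the deposited scale 50 of 56 members lay below 0, as did 58.8% of all genes. In 42 members every DTP array was below every parental array, which held for 29.8% of all genes. The opposite order held for 3 members and for 23.9% of all genes.

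**Figure D1:**
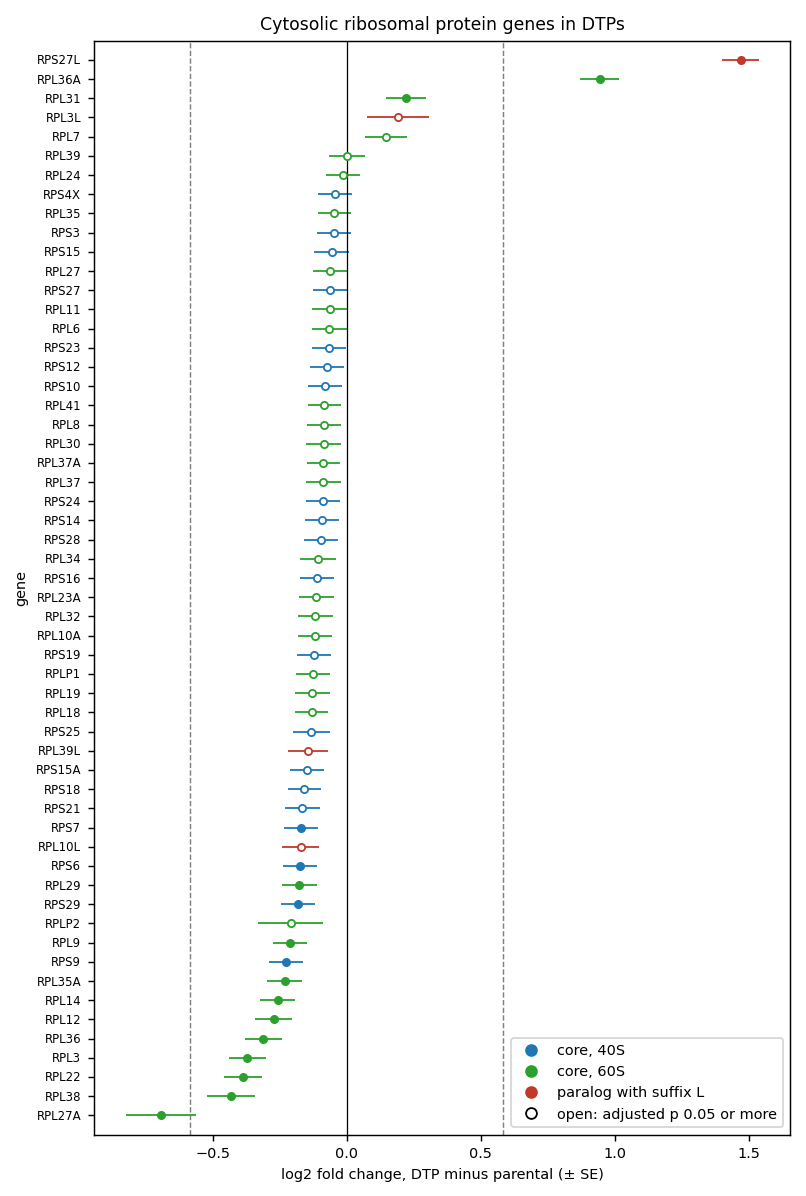
Log2 fold change, DTP minus parental, of the 56 member genes (x axis; points are limma estimates, bars ± SE, 3 arrays per group), ordered by size, with colour for the subunit or the suffix L, filled points for an adjusted p under 0.05 and dashed lines at a fold of 1.5. RPS27L at 1.47 and RPL36A at 0.94 stand to the right, RPL27A at -0.69 to the left, and 50 points lie below 0 on the deposited scale.

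The 4 paralogs were compared first, each with its core counterpart. RPS27L gave log2 values of 10.96, 10.93 and 11.02 in the parental arrays and 12.42, 12.39 and 12.52 in DTPs. All DTP arrays were far above all parental arrays, and each group kept within a narrow band. RPS27L rose 2.77-fold (log2 fold change 1.47 ± 0.07, SE, n = 3 arrays per group, limma adjusted p = 2.86e-09). Its other probe sets, both dimmer, were called too, with log2 fold changes of 1.24 ± 0.10 and 1.11 ± 0.10 (SE).

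RPS27, a zinc-finger protein of the 40S subunit, read 14.45, 14.46 and 14.43 in parental cells and 14.38, 14.44 and 14.35 in DTPs. The groups overlapped in this probe set, and its log2 fold change of -0.06 ± 0.06 (SE) did not pass (limma adjusted p = 0.463). The change of RPS27L exceeded that of RPS27 by 1.53 on the log2 scale. With 3 against 3 arrays the exact permutation test cannot go below p = 0.10, which this difference reached (two-sided, adjusted p = 0.15 over 3 pairs).

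RPL39L, the paralog of a small protein lining the exit tunnel, read 10.82, 10.75 and 10.71 in parental cells and 10.57, 10.53 and 10.74 in DTPs. The third DTP array lay within the parental values and the other DTP arrays below them. Its log2 fold change was -0.14 ± 0.07 (SE, limma adjusted p = 0.142). RPL39 itself read 14.86, 14.91 and 14.79 in parental cells and 14.86, 14.89 and 14.81 in DTPs, a log2 fold change of 0.00 ± 0.07 (SE). Its groups covered nearly the same range. The changes of the 2 genes differed by -0.14 (exact permutation test, p = 0.3, adjusted p = 0.3).

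RPL3L, the muscle paralog, was dim in both groups, below the median of all probe sets (7.29), with 6.17, 6.08 and 6.22 in parental cells and 6.45, 6.56 and 6.03 in DTPs. Of the DTP arrays 1 lay below the parental values and the other 2 above them, and the log2 fold change of 0.19 ± 0.11 (SE) did not pass (limma adjusted p = 0.199). RPL3, a core protein near the peptidyl transferase centre, read 14.32, 14.27 and 14.34 in parental cells and 13.87, 13.95 and 14.01 in DTPs. Every DTP array was below every parental array, and RPL3 fell 1.29-fold (log2 fold change -0.37 ± 0.07, SE, limma adjusted p = 0.000627). RPL3 was read only by a probe set of the kind that can bind other transcripts (suffix _x_at). Centred on spike-ins its log2 fold change was -0.22 and did not pass (adjusted p = 0.157). The changes of RPL3L and RPL3 differed by 0.56 (exact permutation test, p = 0.1, adjusted p = 0.15).

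RPL10L read 8.75, 8.73 and 8.72 in parental cells and 8.48, 8.65 and 8.55 in DTPs. The groups did not overlap, but its log2 fold change of -0.17 ± 0.07 (SE) missed the threshold (limma adjusted p = 0.0602). Its counterpart RPL10 was read only by probe sets annotated to several genes and was not compared. Among the 4 paralogs RPS27L was thus the one that passed the test.

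**Figure D2:**
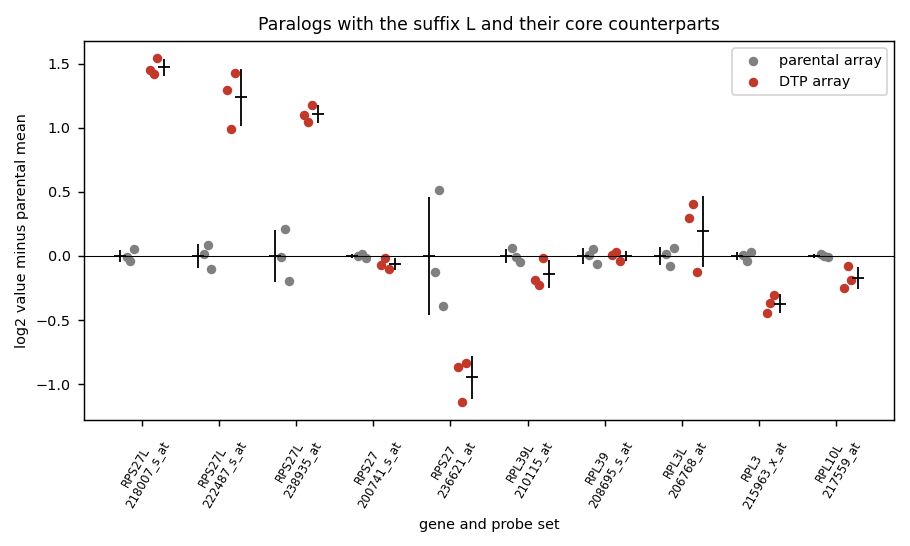
Log2 value minus the mean of the 3 parental arrays (y axis) for each probe set of the 4 paralogs and of RPS27, RPL39 and RPL3 (x axis). Points are arrays, grey for parental and red for DTP, and black marks are group means ± SD. The 3 RPS27L probe sets rise together, by 1.47, 1.24 and 1.11, while the other paralogs stay near 0 or overlap.

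By the 1 probe set taken per gene, the larger changes of core proteins in both directions were in the 60S subunit, whereas over all probe sets the largest were in RPS24 and RPS27 of the 40S subunit. Of 32 such genes 10 fell and 2 rose at the adjusted p, beside 24% and 20.4% of all genes, with a median log2 fold change of -0.12 and a range of -0.69 to 0.94. RPL27A gave 9.65, 9.43 and 9.82 in parental cells and 8.80, 8.74 and 9.27 in DTPs. The highest DTP array stayed below the lowest parental one. RPL27A fell 1.62-fold (log2 fold change -0.69 ± 0.13, SE, limma adjusted p = 0.000847). It was not called in 4 of 21 alternatives, 2 of which leave out its probe set, and among the others was spike-in centring, where the log2 fold change was -0.55 and under the fold required.

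RPL36A, a zinc-binding protein of the 60S subunit, gave 5.47, 5.52 and 5.35 in parental cells and 6.34, 6.48 and 6.34 in DTPs. The groups stood clearly apart, although both were below the median of all probe sets, where RMA values compress changes. RPL36A rose 1.92-fold by this probe set (log2 fold change 0.94 ± 0.07, SE, limma adjusted p = 3.64e-07). No other probe set read it alone, and its paralog RPL36AL, outside the name pattern, changed by -0.08 and did not pass.

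RPL38, known for its role in the translation of Hox mRNAs, gave 11.57, 11.55 and 11.55 in parental cells and 10.97, 11.06 and 11.35 in DTPs. The groups did not overlap, with the third DTP array nearest to the parental ones. RPL38 fell 1.35-fold by this probe set (log2 fold change -0.43 ± 0.09, SE, limma adjusted p = 0.00167). The other 2 probe sets are both of the kind that can bind other transcripts (suffix _x_at). The dimmer of them fell by 0.57 on the log2 scale, and the brightest probe set of RPL38 changed by -0.02 and did not pass.

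RPL22, which also binds a small RNA of Epstein-Barr virus, gave 12.48, 12.43 and 12.46 in parental cells and 11.97, 12.06 and 12.18 in DTPs. All DTP arrays were lower, and RPL22 fell 1.31-fold (log2 fold change -0.39 ± 0.07, SE, limma adjusted p = 0.000685). Its 5 probe sets lay between -0.52 and -0.12, and 3 of them passed. The paralog RPL22L1, outside the name pattern, fell as well (log2 fold change -0.46, limma adjusted p = 0.000169).

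Smaller falls past the adjusted p were seen for RPL36 (log2 fold change -0.31), RPL12 (-0.27), RPL14 (-0.26), RPL35A (-0.23), RPL9 (-0.21) and RPL29 (-0.18), each with an SE of 0.06 or 0.07. Centred on spike-ins none of these 6 passed, nor did RPL38 or RPL22. This centring raises every log2 fold change by the same amount, so falls shrink by construction. It also carries the scatter of the spike-in means into every gene (SD 0.10 among parental and 0.11 among DTP arrays). The part of each in the lost passes was not tested. RPL12 and RPL29 were read by _x_at probe sets only. In the fit over probe sets the one taken for RPL29 did not pass (limma adjusted p = 0.0581). RPL12 lies at the base of the ribosomal stalk, and RPL35A is one of the genes mutated in Diamond-Blackfan anaemia. RPL31 was the other core protein that rose (log2 fold change 0.22 ± 0.07, SE, limma adjusted p = 0.0272), but its probe sets went against each other, as given further on. The acidic stalk proteins RPLP1 and RPLP2, which recruit translation factors, had log2 fold changes of -0.13 ± 0.06 and -0.21 ± 0.12 (SE), and neither passed (limma adjusted p = 0.125 and 0.184). The probe set taken for RPLP2 read near the median of all probe sets (7.29), at 7.43 in parental cells and 7.22 in DTPs. Its change is therefore a weaker measure than that of RPLP1, whose probe set was in the top 1% of all. RPL11, which binds MDM2 when ribosome assembly is disturbed, changed by -0.06 ± 0.06 (SE, limma adjusted p = 0.455). Its partner RPL5, the stalk protein RPLP0, RPSA and the ubiquitin fusion RPS27A had no probe set under the rule.

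The core proteins of the 40S subunit spanned a narrower range by the probe set taken per gene, but not over all their probe sets. All 20 lay below 0 on the deposited scale, with a median log2 fold change of -0.10 and a range of -0.23 to -0.04, and none was called. Of the 20 genes 4 fell at the adjusted p, beside 24% of all genes. These were RPS9, RPS29, RPS6 and RPS7, which fell by 0.23, 0.18, 0.17 and 0.17 on the log2 scale. In the fit over probe sets the same probe set passed for RPS9 (limma adjusted p = 0.0181). Those of RPS29, RPS6 and RPS7 did not (limma adjusted p = 0.0501, 0.0565 and 0.0602). RPS6, the substrate of S6 kinase, gave 14.44, 14.45 and 14.39 in parental cells and 14.26, 14.26 and 14.24 in DTPs. Its groups did not overlap, and the limma adjusted p was 0.0406. RPS6 missed the threshold in 10 of 21 alternatives, among them the replicate block (adjusted p = 0.0692) and leaving out any array but DTP replicate 3 (0.0631 to 0.131), and over all 21 the adjusted p ranged from 0.000214 to 0.90. In 16 of the 20 genes every DTP array was below every parental array, beside 29.8% of all genes, and the difference was at most 1.17-fold in any of them. Taken per array, the median deviation of the 52 core genes from their parental means was -0.12, -0.11 and -0.09 in the 3 DTP arrays and 0.00 in each parental array.

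Most members sat at the top of the measured scale. A total of 66 of the 117 member probe sets, and 44 of the 56 genes, had a mean in the top 1% of all probe sets (above 13.1), close to the highest value of any array. Of these 66 probe sets 65 lay below 0, with log2 fold changes between -0.37 and 0.00. None was called, and 15 fell at the adjusted p. Of all 547 probe sets in the top 1%, 348 (63.6%) lay below 0 and 149 fell at the adjusted p, 24 were called higher and 35 lower, and the median was -0.07. Over the 117 member probe sets together 31 fell and 9 rose at the adjusted p, beside 20.1% and 18.6% of all probe sets, and 98 lay below 0, beside 58.7%. Their DTP arrays were all below the parental ones in 77 and all above in 9, beside 27.5% and 22.4%. The other 51 member probe sets ranged from -0.95 to 2.13, and all 8 calls among member probe sets, 6 higher and 2 lower, were among them. Over all probe sets 7.56% were called higher and 4.93% lower. Whether saturation narrowed the changes of the brightest probe sets was not tested.

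**Figure D3:**
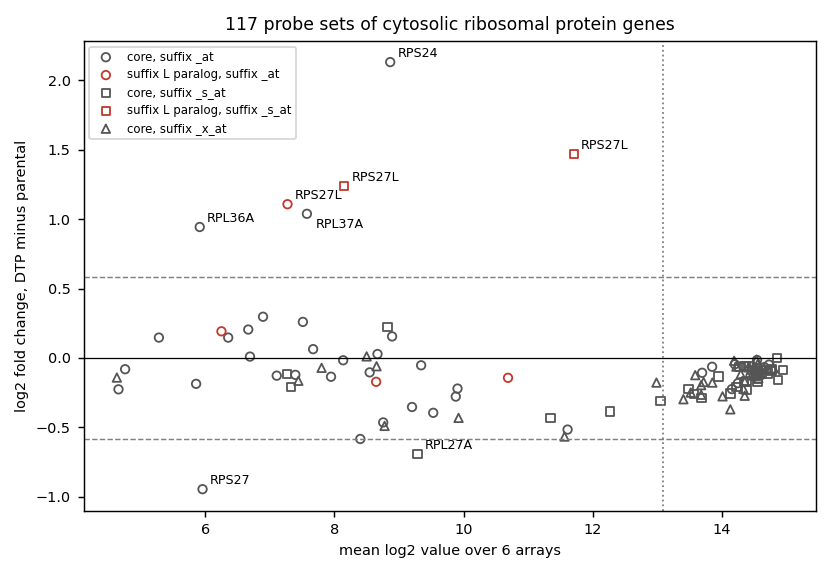
Log2 fold change, DTP minus parental (y axis), against the mean log2 value over 6 arrays (x axis) for the 117 member probe sets, with a shape for the probe set suffix and red for the paralogs. Dashed lines mark a fold of 1.5 and the dotted line the top 1% of all probe sets. The 66 probe sets right of the dotted line lie between -0.37 and 0.00, and the 8 named calls all lie to its left.

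Probe sets of the same gene often differed. Of the 34 member genes with more than 1 probe set, 10 had probe sets on both sides of 0, and in RPL31 and RPL37A they passed the adjusted p in both directions. Which transcripts each probe set reads is not given in the sources used here, and pseudogenes or isoforms of these genes cannot be told apart from the gene itself.

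The largest change of any member probe set belonged to RPS24, a 40S protein with well-known splice isoforms. This probe set gave 7.94, 7.87 and 7.58 in parental cells and 9.62, 10.09 and 10.07 in DTPs. The groups were far apart, a 4.38-fold rise (log2 fold change 2.13 ± 0.13, SE, limma adjusted p = 1.63e-07 over probe sets). The bright probe set of RPS24, which was taken for the gene, gave 14.82, 14.82 and 14.80 in parental cells and 14.70, 14.74 and 14.75 in DTPs. It was slightly lower in every DTP array, by -0.09 ± 0.07 (SE), and did not pass.

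RPL37A, a zinc-finger protein of the 60S subunit, showed the same kind of split. Its dimmest probe set gave 7.12, 7.24 and 6.81 in parental cells and 7.88, 8.08 and 8.32 in DTPs. These values rose 2.05-fold (log2 fold change 1.04 ± 0.12, SE, limma adjusted p = 4.27e-05). Of its other probe sets, the middle one fell by 0.43 and the brightest changed by -0.09 without passing.

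A dim probe set of RPS27 went the other way, with 6.31, 6.94 and 6.04 in parental cells and 5.57, 5.29 and 5.60 in DTPs. It was scattered in parental cells yet above all DTP arrays, and fell 1.93-fold (log2 fold change -0.95 ± 0.18, SE, limma adjusted p = 0.00138). In RPL31 the 3 probe sets changed by 0.22, -0.12 and -0.58. The last of them fell with 8.70, 8.70 and 8.68 in parental cells against 8.10, 8.04 and 8.18 in DTPs, just short of the fold needed for a call. In RPS14, a 40S protein whose loss marks the 5q- syndrome, the bright probe set changed by -0.09 without passing while 2 dim ones rose by 0.30 and 0.26. The 3 bright probe sets of RPS10 changed by -0.11 to -0.08 and a dimmer one fell by 0.49.

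**Figure D4:**
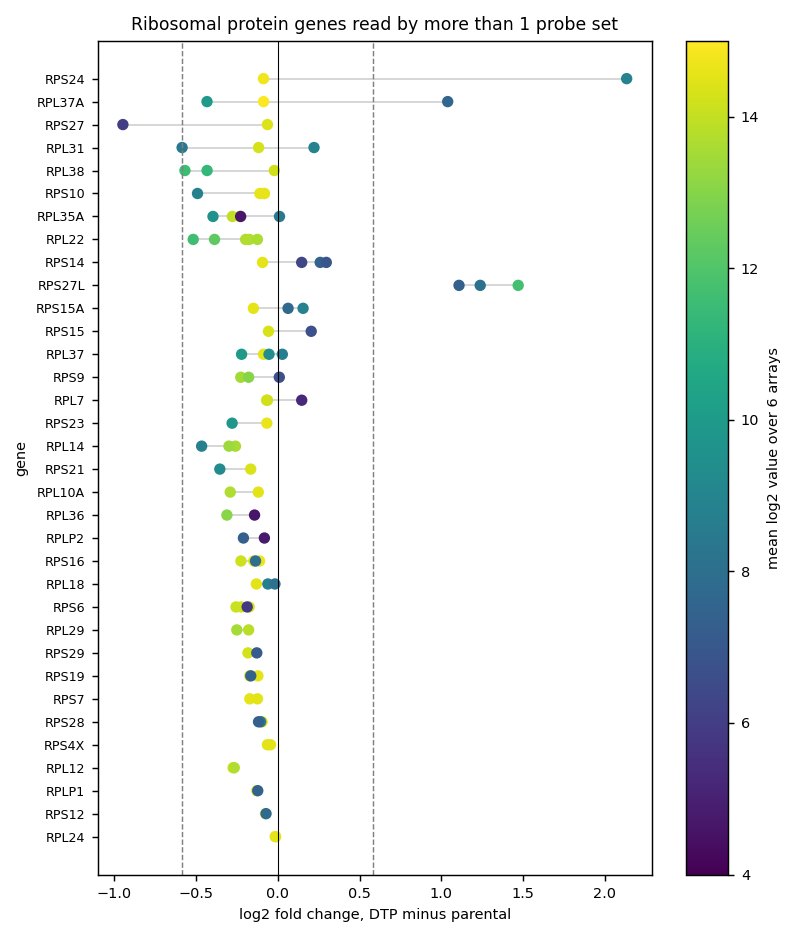
Log2 fold change, DTP minus parental (x axis), of every probe set of the 34 member genes read by more than 1, ordered by the spread within the gene (y axis), with colour for the mean log2 value and dashed lines at a fold of 1.5. The bright, yellow points lie close to 0 in most genes, and the outlying points of RPS24 (2.13), RPL37A (1.04) and RPS27 (-0.95) are dim.

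A further 64 probe sets were annotated to several genes, at least 1 of them a ribosomal protein, and 15 ribosomal protein symbols were found only there. They are not named by gene. Their median log2 fold change was -0.13, with 18 that fell and 6 that rose at the adjusted p, beside 20.1% and 18.6% of all probe sets. Among them 1 was called higher and none lower, beside 7.56% and 4.93% of all probe sets.

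RefSeq start windows, from 250 bases before to 50 bases after the start, were found for 48 of the 56 genes, in 55 windows. The remaining genes were RPL23A, RPL30, RPL37, RPL39L, RPL3L, RPL7, RPL8 and RPS15A. A C followed by at least 4 pyrimidines stood at the start of 34 windows (61.8%), compared with 4.07% of 35116 windows of all genes. The hexamer CGGAAG, searched on both strands as the core of ETS family sites, was in 69.1% of member windows and 19.5% of all. The GC-box hexamer GGGCGG, searched on both strands, was in 52.7% and 45.0%. These matches describe the letters only.

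The 34 member genes with the tract and the 14 without it had the same median log2 fold change, -0.12. Of the called members, RPL36A (higher) and RPL27A (lower) had the tract and RPS27L (higher) did not. Among all 933 genes with the tract the median was -0.08, with 79 called higher and 97 called lower, beside -0.05 over the 15382 genes with a window. No test was run on these medians.

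Genes that act with the ribosome were read from fixed lists, whose counts stand beside 20.4% of all genes that rose and 24% that fell at the adjusted p, and 8.08% called higher and 6.13% called lower. Of 5 measured paralogs and ubiquitin fusions outside the name pattern, none was called, while RPL22L1 and RPL7L1 (log2 fold change -0.37) fell at the adjusted p. Of 18 translation factors and other TOP mRNAs 4 rose and 10 fell at the adjusted p, with a median of -0.21. VIM, an intermediate filament protein whose mRNA is often counted with the TOP mRNAs, rose by 2.65, and NACA, a chaperone subunit at the exit tunnel, by 0.88. HNRNPA1, an RNA-binding protein, fell by 0.75 and EIF3A, the largest subunit of eIF3, by 0.66. NACA and HNRNPA1 were each read by 1 of 3 probe sets, with parental means of 7.56 and 9.31. Their other probe sets were not compared. Of the 18 genes 3 were below the median of all probe sets in both groups.

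Of 19 initiation factors of the cap-binding and eIF2 steps, 10 fell and 1 rose at the adjusted p (24% and 20.4% of all genes), and 3 were called, all lower (6.13% of all genes). EIF4EBP1, the repressor of eIF4E that mTORC1 inactivates, gave 12.21, 12.32 and 12.31 in parental cells and 10.23, 10.26 and 10.46 in DTPs. All DTP arrays were far below, and EIF4EBP1 fell by 1.96 on the log2 scale (limma adjusted p = 6.46e-10). EIF2S2, a subunit of eIF2, fell by 0.98 and EIF2B2, a subunit of its exchange factor, by 0.90.

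Of 18 genes that control TOP mRNAs through mTORC1 and LARP1, 8 fell and 4 rose at the adjusted p, beside 24% and 20.4% of all genes. DEPTOR, an inhibitor within the mTOR complexes, was called lower, as was RPS6KB1, the kinase that phosphorylates RPS6 (log2 fold change -0.63). Of 8 chaperones and assembly factors of single ribosomal proteins, 3 fell and 1 rose, and BCCIP, a chaperone of RPL23, was called (log2 fold change -0.85).

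Of 17 measured p53 targets, a list set beside RPS27L, 6 rose and 7 fell at the adjusted p (20.4% and 24% of all genes), with a median log2 fold change of 0.00. TP53INP1 (1.95) and ZMAT3 (1.35) were called higher, as was SESN1, and TNFRSF10B (-1.46) and PLK3 (-0.68) were called lower. CDKN1A, the cell cycle inhibitor p21, rose by 0.38 and MDM2, the ligase that degrades p53, fell by 0.31. MDM2 was read by 1 of 10 probe sets, ZMAT3 by 1 of 5, TNFRSF10B by 1 of 4, and TP53INP1 and PLK3 by 1 of 3. The others were not compared.

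Across all probe sets Pearson's r lay between 0.9968 and 0.9979 within a group and between 0.970 and 0.975 across groups, as a description of the arrays. The 6 epithelial markers were bright in all arrays and none was called, while at the adjusted p KRT8, KRT19 and ELF3 rose (log2 fold changes 0.45, 0.36 and 0.48) and EPCAM fell (-0.19). Of 6 fibroblast markers COL1A1 was called higher (log2 fold change 2.67), COL1A2 fell at the adjusted p (-0.26), and 4 were below the median of all probe sets. The summed log2 level of the list was 40.7 to 41.3 in parental cells and 43.1 to 43.9 in DTPs. This rise of the sum was that of COL1A1, as the other markers changed by -0.26 to 0.13 and none of them rose at the adjusted p. COL1A1 was read by 1 of 5 probe sets, and its other probe sets were not compared. None of 5 blood cell markers was called, and at the adjusted p CD14 rose by 0.34 and LYZ fell by 0.31. The log2 difference between 3′ and 5′ control probe sets was 0.02 lower in DTPs for GAPDH and 0.11 lower for β-actin (exact permutation test, p = 0.1 each, the smallest possible). The part of these in the values of ribosomal proteins was not tested.

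The size of the common shift of members depended on the scale. Centred on the 18 probe sets of the hybridization spike-ins, which were 0.15 lower in DTPs (exact permutation test, p = 0.2), the median of members became 0.04 and that of all genes 0.10. The centring adds this same 0.15 to every log2 fold change, so falls shrink and rises grow by construction. It also carries the scatter of the spike-in means between arrays of a group into the spread of every gene. On that scale 5 members passed the adjusted p higher and 1 lower, the latter beside 9.38% of all genes. None was called lower and 2 were called higher, beside 4.02% and 11.6% of all genes. The share of all genes past the adjusted p higher was not counted on that scale. Under cyclic loess these medians were -0.04 and -0.01. In all 21 alternative settings the median of members was below that of all genes. RPS27L was called higher in all 21 of them.

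**Figure D5:**
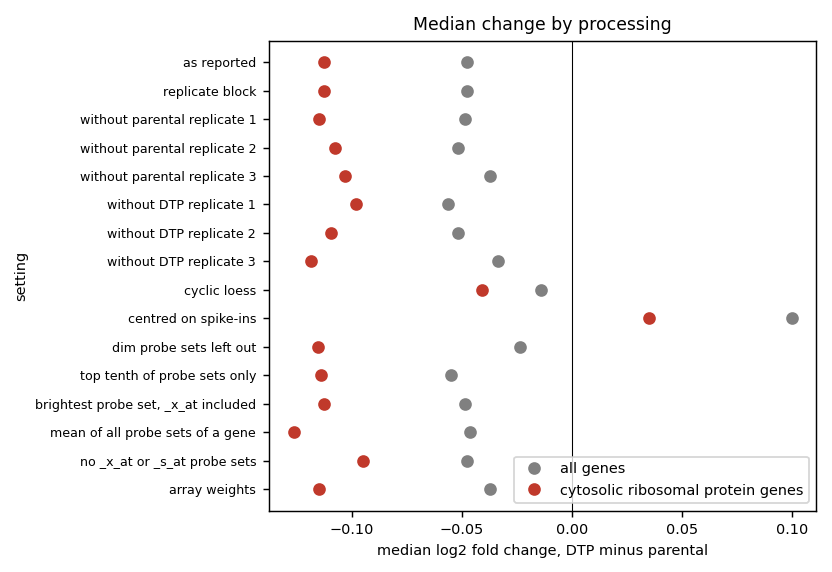
Median log2 fold change, DTP minus parental (x axis), over member genes (red) and over all genes (grey) under each setting shown (y axis). Among these settings the replicate block cannot move the medians. The red point lies left of the grey one in every line, and both cross 0 when arrays are centred on spike-ins, at 0.04 and 0.10.

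The count of members that fell depended on the estimate of the spread. With an intensity trend and robust variances together, 36 members passed the adjusted p in the lower direction, beside 24.4% of all genes, compared with 14 and 24% above. The fold changes are the same in both counts.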

How the data were processed

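Total RNA of 3 parental and 3 DTP samples was amplified as biotin-labelled cRNA and hybridized to 1 array each. The log2 values deposited by the authors are probe set summaries from RMA (affy package, versions not given), quantile-normalized according to the methods. Quantile normalization hides a change of total mRNA per cell, and RMA gives no detection call. Array medians were 7.27 to 7.32. Precision is limited by the number of arrays. The labels do not say whether replicates were separate cultures, so the p-values reflect only the spread among these samples, which may be technical.

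The file held 54675 probe sets, of which 62 controls were left out. A table of GEO's platform annotation gave 1 symbol for 41091 probe sets, several for 1801 and none for 11721. Each gene was read by its brightest probe set over all arrays, preferring those without the suffix _x_at. By this rule RPL3L, RPL7 and RPL36A were read by probe sets below the median of all in both groups, and RPLP2 by one below it in DTPs. RPL31 was read by a probe set with a parental mean of 8.71, while its _x_at probe set read 14.35. The 7 members read by _x_at probe sets only were RPL3, RPL12, RPL23A, RPL29, RPS4X, RPS10 and RPS12. All 56 members matched RefSeq by gene ID. Genes and probe sets were each fitted with lmFit and eBayes of limma 3.58.1 (R 4.3.3) without covariates, two-sided, at the thresholds of the study's methods. SEs are limma's. On simulated data with 200 changed genes among 19775, the comparison over genes passed 84% of the 1.5-fold changes at the adjusted p and called 50.4%. Of the 2-fold changes 98.2% were called. Changes under 1.5-fold, such as those of most members, were not simulated. The simulated share of changed genes was also far below that past the adjusted p in the data (20.4% higher and 24% lower).

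Members, lists and tests were chosen with earlier results of these data known, so no test over a list was run. Genes were named by rule: called members, the paralogs and their counterparts, up to 10 members with the smallest p in each direction, a few fixed members, and of each list the called genes with the largest change. RPS24, RPL37A, RPS10, RPS14, the remaining members past the adjusted p, SESN1, CDKN1A, MDM2, RPL36AL, KRT19, EPCAM and COL1A2 were named after their values were seen. Alternatives were a replicate block, omission of each array, cyclic loess, spike-in centring, other rules for probe sets, variances and thresholds, and the methods' t-test. Counting probe sets with several symbols, and taking only members above the median, were added after the data were seen.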

Additional observations from a re-analysis of the deposited data

How the results depend on the processing

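Leaving out 1 array at a time gave 9 to 18 members past the adjusted p in the lower direction (14 with all arrays). These counts stand beside 20.1% to 23.3% of all genes. The median change was -0.12 to -0.10, and 2 to 6 member probe sets were called lower (6 without DTP replicate 3). Shares of all probe sets were not counted in these fits. Without DTP replicate 3, 6.86% of all genes were called lower, compared with 6.13% with all arrays. The change of RPL39 ranged from -0.032 to 0.028, below 0 without parental replicate 3 (-0.032), DTP replicate 1 (-0.00414) or DTP replicate 2 (-0.016). Cyclic loess left 9 members past the adjusted p in the lower direction, beside 21.6% of all genes. It gave a median of -0.041 and turned RPL11 (0.0045) and RPS27 (0.0091). Spike-in centring left 0 members called lower, beside 4.02% of all genes. At the adjusted p 5 members were higher and 1 lower, the latter beside 9.38% of all genes. The median was 0.035, and 1 probe set was called lower with 7 past the adjusted p lower, for which shares of all probe sets were not counted. The centring turned RPL11 (0.084), RPL39L (0.00408), RPLP1 (0.020) and RPS27 (0.085), and 74.2% of all gene calls were then higher, against 56.9%. Without dim probe sets 1 of 54 members was called higher, beside 10.9% of the genes left. Among the top 10% of probe sets 1 of 51 members was called higher and 0 lower, beside 10.3% and 13.3% of the genes left. At the adjusted p 1 was higher and 24 lower, the latter beside 41.1%. RPL31 was -0.12, as with the brightest probe set. The mean of a gene's probe sets gave 23 of 56 members lower at the adjusted p, beside 24.2% of all genes. RPL31 was then -0.16, the median -0.13 and RPS27L minus RPS27 1.78. Without _x_at and _s_at probe sets 4 of 34 members were called higher, beside 7.74% of the genes left. At the adjusted p 5 were higher and 9 lower, the latter beside 21.6%. RPL31 was -0.58, RPS9 0.0095, the median -0.095 and RPS27L minus RPS27 2.05. For members past the adjusted p in the lower direction, an intensity trend with robust variances gave 36, beside 24.4% of all genes. An adjusted p under 0.01 gave 7, beside 16.7%. The methods' t-test gave 39 unadjusted and 30 adjusted, beside 24.5% and 17.6%. Members called lower were 14 by adjusted p alone, 6 at a fold over 1.2 and 0 by the adjusted t-test. The shares of all genes were 24%, 18.1% and 6.07%. Counting probe sets with several symbols gave 49 lower and 15 higher at the adjusted p, beside 20.1% and 18.6% of all probe sets. Shares of all genes past the adjusted p higher were not counted for spike-in centring, the top 10% or the setting without _x_at and _s_at probe sets. The causes were not tested.

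The replicate numbers did not pair the samples (r of same-numbered deviations -0.12, 0.02 and -0.06). With them as a block 10 members instead of 14 passed the adjusted p in the lower direction, beside 23% of all genes instead of 24%. The same 3 genes were called. Of 21 alternatives over genes, RPL36A was called in all but those restricted to brighter probe sets. RPL27A was called in 17, and not under spike-in centring, in the top 10%, without _x_at and _s_at probe sets, or by the adjusted t-test.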
